A study of Homo sapiens with 6 samples.

Results

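Classical cadherins, the catenins that bind them and the transcription and splicing factors of the epithelial to mesenchymal transition (EMT) were followed as 10 genes taken by name. These were CDH1, CDH2, CDH3, CDH11, CTNNA1, CTNNB1, CTNND1, ZEB1, SNAI2 and ESRP1, out of 38170 annotated features, and all 10 were among the 19620 features with enough counts to be tested. The cells were A549, a line from a human lung carcinoma, and they overexpressed LOC401312, a long non-coding RNA delivered with the piggyBac transposon system (3 RNA-seq libraries), or carried an empty vector (3 libraries). Whether each line was a clone or a pool of transfected cells is not given in the labels. Since no label says that replicates were separate cultures, p-values cover only the spread among the 6 libraries, and this spread may be technical.

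Classical cadherins are membrane proteins that hold neighbouring cells together through calcium-dependent contacts between their outer domains. Inside the cell, the cadherin tail binds β-catenin (CTNNB1) and p120-catenin (CTNND1), and β-catenin holds α-catenin (CTNNA1), which links the junction to actin. In carcinomas such as A549, the balance of E-cadherin (CDH1) and N-cadherin (CDH2) is a common readout of EMT. ZEB1 and SNAI2 are repressors of CDH1, and ESRP1 is a splicing factor of epithelial cells that ZEB1 represses.

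The 4 cadherin genes share sequence, so a stretch of each was set side by side to show how far reads can be told apart. The stretch of 90 bases below lies in 1 exon near the 3′ end of each coding sequence and encodes part of the tail that binds β-catenin. Of the aligned stretches of this length without gaps, it was picked for having the most bases identical in all 4 genes. It therefore shows the genes where they are most alike, not a typical stretch. Sequences are from the GENCODE 29 transcripts (GRCh38), written 5′ to 3′ on the coding strand, and capitals mark the 51 bases that are identical in all 4 genes.
CDH1: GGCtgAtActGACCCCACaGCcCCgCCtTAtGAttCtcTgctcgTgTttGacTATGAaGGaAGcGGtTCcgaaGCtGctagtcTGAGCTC
CDH2: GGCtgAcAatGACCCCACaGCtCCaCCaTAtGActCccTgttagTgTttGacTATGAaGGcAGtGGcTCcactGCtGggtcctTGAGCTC
CDH3: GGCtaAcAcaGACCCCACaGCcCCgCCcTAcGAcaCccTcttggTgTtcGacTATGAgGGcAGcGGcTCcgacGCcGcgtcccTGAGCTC
CDH11: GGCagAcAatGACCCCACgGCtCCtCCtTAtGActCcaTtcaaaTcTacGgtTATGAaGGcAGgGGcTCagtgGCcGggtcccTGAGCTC
The stretch lies at chr16:68833301-68833390 on the plus strand for CDH1 and at chr18:27952259-27952348 on the minus strand for CDH2. For CDH3 it lies at chr16:68698202-68698291 on the plus strand, and for CDH11 at chr16:64947724-64947813 on the minus strand. Over the whole coding sequence, CDH1 and CDH3 were the closest pair, with 61.4% of aligned bases identical, and CDH1 and CDH11 the most distant, with 47.4%. The longest run of bases shared exactly by 2 of the transcripts was 21, between CDH1 and CDH3. None of the 4 is therefore a near-identical copy of another.

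The libraries held 65823845 to 70202062 counts for LOC401312 and 60971105 to 73994619 for vector. The STEAP1B entry, whose annotation holds LOC401312, had 94628, 92527 and 90297 counts in the LOC401312 libraries against 9, 11 and 23 in the vector libraries. For LOC401312 replicates 2 and 3, the label for genotype reads LOC401313 and LOC401314, unlike their titles. Levels in CPM are counts scaled to a common library total. The median of 12 A549 marker transcripts was 1040 to 1050 CPM in LOC401312 and 1200 to 1350 CPM in vector. However, 3 of the 12 were near 0: the lung factor NKX2-1 had at most 4 counts in any library, SFTPB at most 18 and SFTPC at most 25. Of the 10 tested, CPS1 was higher in LOC401312, AKR1B10, AKR1C1, ALDH1A1, NQO1 and GPX2 were lower, and 4 were not called. LOC401312 replicates 2 and 3 stood apart by 16 trophoblast transcripts, whose summed CPM was 24.1, 137 and 118 in LOC401312 and 21.4, 24.3 and 22.3 in vector. TFAP2C, at 16.1 to 18.2 CPM in every library, made up most of the sum in LOC401312 replicate 1 and in vector. CGA was at 0.35, 53.4 and 56.4 CPM in LOC401312 and 0.32, 0.89 and 0.39 CPM in vector. Vector replicate 1 stood apart by 8 blood transcripts, whose summed CPM was 15.1, 12.9 and 13.8 in LOC401312 and 38.6, 11.9 and 13.5 in vector. Outside vector replicate 1, most of this sum was CD14, which was at 10.67 to 13.45 CPM in every library. Vector replicate 1 was also the highest in 10 fibroblast transcripts, with 33.8, 37.6 and 36.0 CPM in LOC401312 and 92.7, 54.8 and 65.1 CPM in vector. COL1A1, COL1A2 and THY1 together made up most of this sum in every library. The sum of 12 urothelial transcripts was 36.2 to 39.9 CPM in LOC401312 and 43.9 to 48.2 CPM in vector. UPK3B and TP63, neither of them called, together made up most of this sum in every library. KRT13, PSCA, ADIRF and CDKN2A were lower in LOC401312, and the other 7 tested were not called. KRT13 had 5, 0 and 0 counts in LOC401312 and 338, 253 and 286 in vector. ADIRF had 0, 3 and 7 counts in LOC401312 and 121, 92 and 44 in vector. CDKN2A had 0, 0 and 0 counts in LOC401312 and 47, 18 and 17 in vector. The part of these marker transcripts in the results on the 10 genes was not tested, beyond the fits with libraries left out given below. Every such fit kept vector libraries, so none could test transcripts found in all 3 vector libraries, such as KRT13.

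Among the 10 genes, CDH1, CDH2, CDH3 and SNAI2 were higher and CDH11 was lower in LOC401312, while the 3 catenins, ZEB1 and ESRP1 did not pass the test. A call means an adjusted p under 0.05 in edgeR's quasi-likelihood test, adjusted by Benjamini-Hochberg over all features tested. Of those features, 8.72% were called, 4.13% higher and 4.58% lower. The median log2 change (LOC401312 over vector) was 0.24 over the 10 genes and -0.000665 over all features tested. In CPM, the LOC401312 libraries were all above the vector libraries for 4 of the 10 genes and all below for 1. Among all features tested, 14.0% had every LOC401312 library above and 13.9% had every one below.

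**Figure D1:**
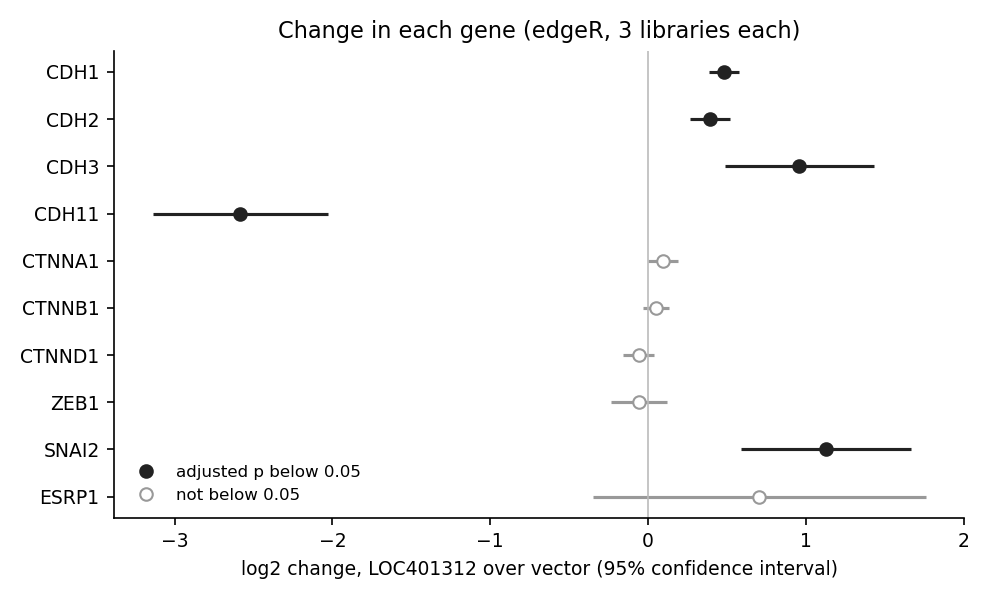
Log2 change of each of the 10 genes (LOC401312 over vector, edgeR, 3 libraries each), with bars for the 95% confidence interval and filled points for an adjusted p under 0.05. CDH1, CDH2, CDH3 and SNAI2 lie right of 0 and CDH11 lies at -2.58, while the intervals of the other 5 genes include 0.

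CDH1 (ENSG00000039068; GRCh38 chr16:68737292-68835537, plus strand) encodes E-cadherin, the main cadherin of epithelia. It had 7482, 7125 and 7313 counts in the LOC401312 libraries, against 5534, 4607 and 4793 in the vector libraries. In FPKM, fragments scaled for transcript length and library total, this was 15.45, 14.86 and 15.56 in LOC401312 and 10.24, 9.90 and 9.98 in vector. The LOC401312 libraries lay together above all vector libraries, and the groups did not overlap. The level in CPM was 107 ± 2.62 in LOC401312 and 76.5 ± 1.77 in vector (SD, n = 3 each), a log2 change of 0.48 (SE 0.04, adjusted p = 0.000131). This is a 1.40-fold higher level, with a 95% confidence interval of 1.31 to 1.49. RNA was taken from whole cultures, so a difference in how many cells express a gene and a difference in RNA per cell cannot be told apart.

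CDH2 (ENSG00000170558; chr18:27932879-28177946, minus strand) encodes N-cadherin, the cadherin of neural and mesenchymal cells. The LOC401312 libraries held 2478, 2559 and 2550 counts and the vector libraries 2115, 1657 and 1733. Its FPKM was 3.64, 3.8 and 3.85 in LOC401312, against 2.78, 2.53 and 2.57 in vector. The groups did not overlap on either scale. The log2 change was 0.39 (SE 0.06, adjusted p = 0.00268), which is 1.31-fold (1.20 to 1.44).

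E- and N-cadherin transcripts thus both rose. The FPKM ratio of CDH1 to CDH2 was 4.24, 3.91 and 4.04 in LOC401312, against 3.68, 3.91 and 3.88 in vector. The ratios of the groups met at 3.91, and no test was made of this ratio.

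CDH3 (ENSG00000062038; chr16:68636189-68700292, plus strand) encodes P-cadherin, known from basal epithelia and placenta. It was scarce, with 147, 163 and 153 counts in LOC401312 and 82, 74 and 70 in vector. This was 0.30, 0.34 and 0.33 FPKM in LOC401312 and 0.15, 0.16 and 0.14 FPKM in vector. Each LOC401312 library was above each vector library, and the log2 change was 0.96 (SE 0.21, adjusted p = 0.0204), or 1.94-fold (1.40 to 2.70). Trophoblast transcripts summed to 24.1 CPM in LOC401312 replicate 1 (17.2 CPM of it TFAP2C), 137 in replicate 2 and 118 in replicate 3. The level of CDH3 was 2.08 CPM in replicate 1 and 2.39 and 2.29 CPM in replicates 2 and 3. The call held in 2 of the 6 edgeR fits that left out 1 library (adjusted p = 0.0467 without LOC401312 replicate 1 and 0.0416 without vector replicate 1). In the other 4 it was lost, with an adjusted p of 0.0821 without LOC401312 replicate 2, 0.0689 without LOC401312 replicate 3, 0.0505 without vector replicate 2 and 0.0652 without vector replicate 3.

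CDH11 (ENSG00000140937; chr16:64943753-65126112, minus strand) encodes OB-cadherin, a cadherin of osteoblasts and other mesenchymal cells. Only 38, 29 and 27 counts were found in the LOC401312 libraries, against 221, 144 and 175 in the vector libraries. In FPKM this was 0.03, 0.03 and 0.02 in LOC401312 and 0.19, 0.14 and 0.17 in vector. All vector libraries lay far above all LOC401312 libraries, and the log2 change was -2.58 (SE 0.25, adjusted p = 0.000228), a level 5.99-fold lower (4.08 to 8.80). Of the 10 fibroblast transcripts, COL1A1, COL1A2 and THY1 were also lower, FAP was higher and 6 were not called. COL1A2 had 348, 405 and 341 counts in LOC401312 and 1265, 784 and 802 in vector, and THY1 had 643, 605 and 583 in LOC401312 and 993, 863 and 989 in vector, so both were higher in all 3 vector libraries, as CDH11 was. The fibroblast marker LUM had 113, 157 and 168 counts in LOC401312 and 347, 25 and 49 in vector, and DCN had 75, 118 and 91 in LOC401312 and 205, 31 and 59 in vector, where only replicate 1 lay above LOC401312. Of the 11 tested urothelial transcripts, KRT13, PSCA, ADIRF and CDKN2A were also lower and 7 were not called. KRT13 had 5, 0 and 0 counts in LOC401312 and 338, 253 and 286 in vector, so it too was higher in all 3 vector libraries. The part of these transcripts in the CDH11 result was not tested. CDH11 was as low without vector replicate 1, the library richest in fibroblast and blood transcripts (log2 change -2.52, edgeR adjusted p = 0.00103). That fit keeps the other vector libraries, so it cannot test transcripts found in all 3 of them.

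**Figure D2:**
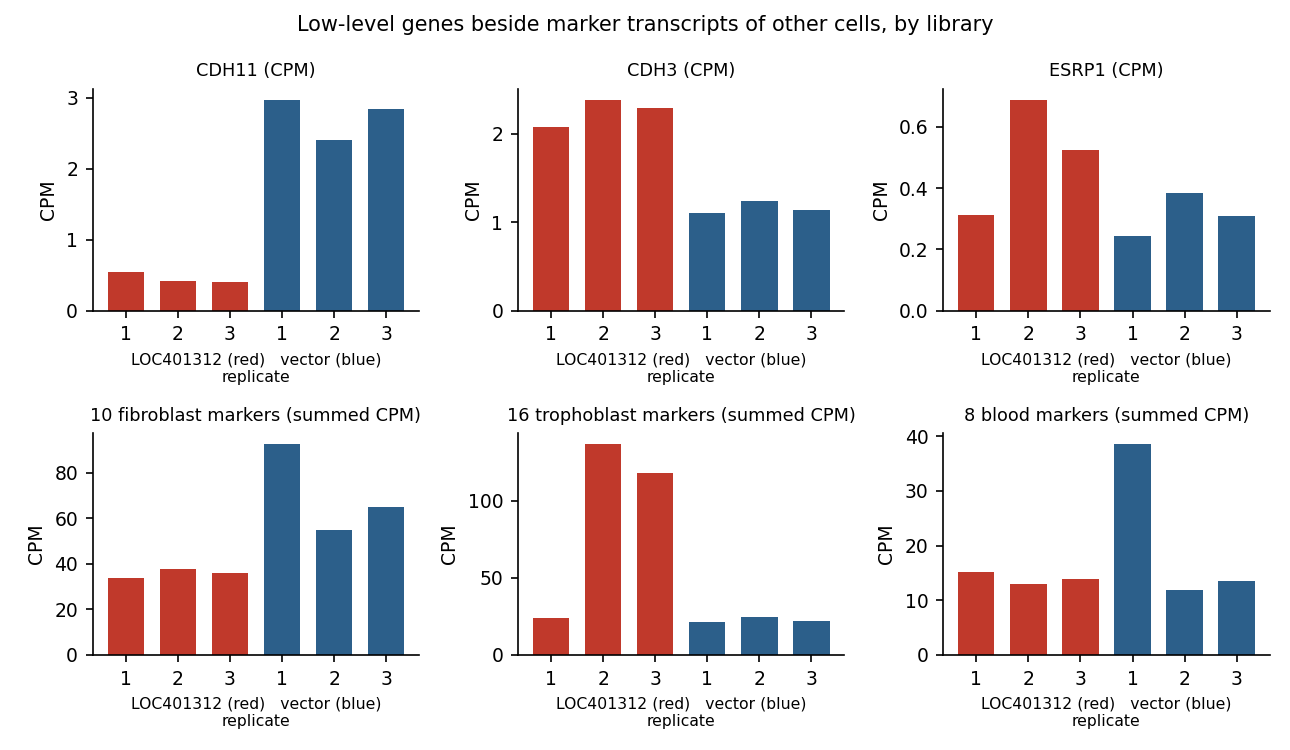
CPM of CDH11, CDH3 and ESRP1 in each library (top), and summed CPM of fibroblast, trophoblast and blood marker transcripts in the same libraries (bottom), with LOC401312 replicates 1 to 3 in red and vector replicates 1 to 3 in blue; each bar is 1 library. CDH11 is high in all 3 vector libraries (2.41 to 2.98 CPM), CDH3 is high in all 3 LOC401312 libraries, and ESRP1 is highest in the LOC401312 replicates with the most trophoblast transcripts. TFAP2C makes up most of the trophoblast sum in LOC401312 replicate 1 and in vector, and CD14 most of the blood sum outside vector replicate 1. COL1A1, COL1A2 and THY1 together make up most of every fibroblast sum.

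By FPKM these 4 cadherin transcripts summed to 19.4, 19.0 and 19.8 in LOC401312, against 13.4, 12.7 and 12.9 in vector. CDH1 made up 78.8 ± 0.736% of the sum in LOC401312 and 77.3 ± 0.606% in vector (SD, n = 3 each). The share of CDH3 was 1.67 ± 0.121% in LOC401312 and 1.16 ± 0.0889% in vector, and that of CDH11 was 0.138 ± 0.0317% in LOC401312 and 1.28 ± 0.165% in vector. These shares describe the 4 genes together and were not tested.

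CDH1 and CDH3 are neighbours on chromosome 16, where CDH3 ends 36999 bases before CDH1 starts on the same strand. Of the 22 other tested features within 500 kb of either gene, edgeR called 0, with 2 at an unadjusted p under 0.05 and a smallest adjusted p of 0.0765, and their median log2 change was 0.01. Among the 15 with a mean of at least 4 CPM, the log2 changes ran from -0.62 to 0.26. The nearest neighbours at that level were ZFP90, a zinc finger gene on the CDH3 side (0.26, SE 0.09, adjusted p = 0.106), and TANGO6 on the CDH1 side (0.04, SE 0.07, adjusted p = 0.809). CDH11 lies 3510076 bases before CDH3 on the opposite strand.

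**Figure D3:**
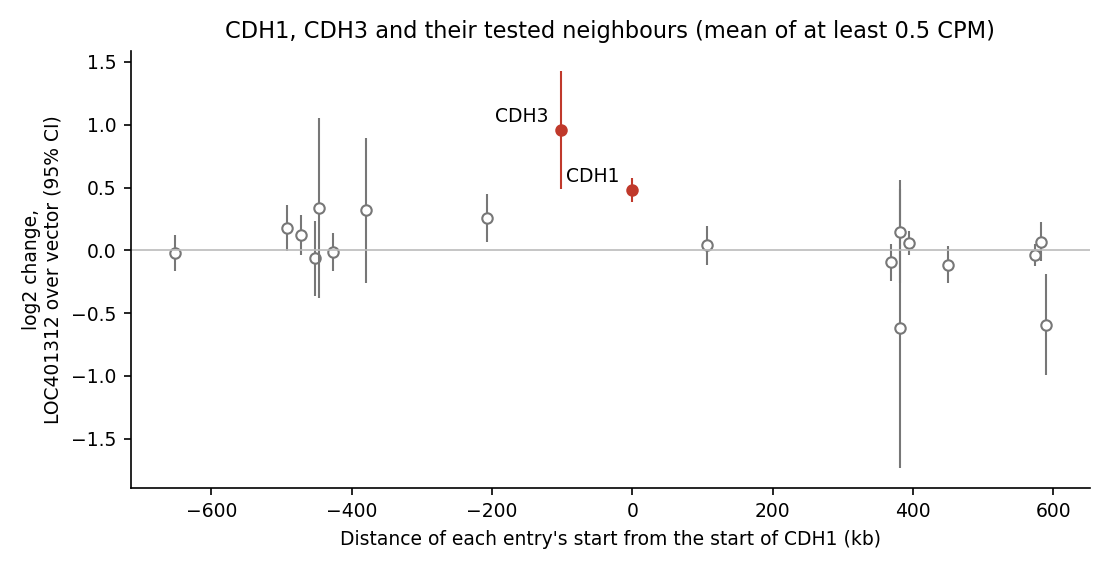
Log2 change (LOC401312 over vector, edgeR) of CDH1, CDH3 and tested features within 500 kb of either, with a mean of at least 0.5 CPM, by the distance of each start from the start of CDH1 in kb; bars are 95% confidence intervals. CDH3 (0.96) and CDH1 (0.48), in red, are the called ones, and every neighbour is an open grey point, not called.

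The catenins were the most abundant transcripts of the group, and none was called. CTNNA1 (ENSG00000044115; chr5:138610967-138935034, plus strand), which encodes αE-catenin, had 24076, 22655 and 21297 counts in LOC401312 and 22570, 19309 and 18645 in vector. In CPM the groups overlapped, at 341, 332 and 319 in LOC401312 and 304, 323 and 303 in vector. The change in CTNNA1 was 0.09 on the log2 scale (SE 0.04, 95% confidence interval -0.000353 to 0.19, adjusted p = 0.223).

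CTNNB1 (ENSG00000168036; chr3:41194741-41240443, plus strand) encodes β-catenin, which also acts in the nucleus as a Wnt coactivator. It had 15228, 14730 and 13979 counts in LOC401312 and 15094, 12350 and 12908 in vector. Its levels of 216, 216 and 209 CPM in LOC401312 met those of 203, 207 and 210 CPM in vector. Its log2 change of 0.05 was not called (SE 0.04, adjusted p = 0.497).

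CTNND1 (ENSG00000198561; chr11:57753243-57819546, plus strand) encodes p120-catenin, which keeps cadherins at the surface. The LOC401312 libraries held 20277, 19192 and 18144 counts and the vector libraries 21916, 18171 and 17030, and the groups overlapped, at 272 to 288 CPM in LOC401312 and 277 to 304 CPM in vector. Its log2 change was -0.06 (SE 0.04, adjusted p = 0.494). The AP001931 entry (ENSG00000288534) spans most of the gene on the same strand and had 626, 495 and 1928 counts in LOC401312 and 292, 183 and 1831 in vector, so some reads of CTNND1 may be split between them.

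In FPKM, CTNNA1 was at 34.37, 32.67 and 31.31 in LOC401312 and 28.88, 28.70 and 26.86 in vector, with no overlap. CTNNB1 was at 16.32, 15.94 and 15.43 FPKM in LOC401312 and 14.50, 13.78 and 13.96 FPKM in vector, again with no overlap. With limma on log2(FPKM + 0.1), CTNNA1 (0.22, adjusted p = 0.0364) and CTNNB1 (0.17, adjusted p = 0.0480) were called higher. The deposited FPKM run higher in LOC401312 as a whole: over 6137 features that averaged 5 FPKM or more, the median log2 ratio was 0.11, against -0.02 for such features in the count fit. Relative to that shift the catenin changes in FPKM are about as small as in the counts. The summed FPKM of the 4 cadherins over that of CTNNB1, a ratio within each library, was 1.19, 1.19 and 1.28 in LOC401312 and 0.921, 0.924 and 0.921 in vector.

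**Figure D4:**
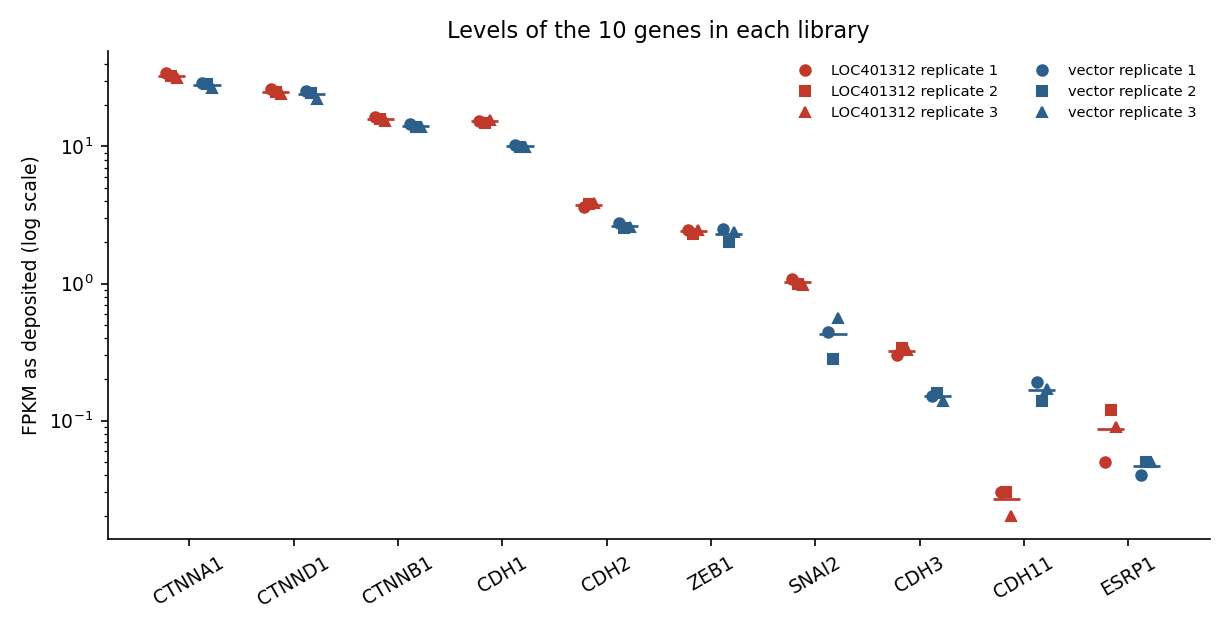
FPKM as deposited, on a log scale, of the 10 genes in each library, with LOC401312 (red) left of vector (blue), a symbol for each replicate and a line at the group mean. The catenins and CDH1 lie near or above 10 FPKM, CDH2 and ZEB1 between 2 and 4, and CDH3, CDH11 and ESRP1 below 0.4.

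By FPKM the order of the genes was nearly the same in both groups. In LOC401312 it ran CTNNA1, CTNND1, CTNNB1, CDH1, CDH2, ZEB1, SNAI2, CDH3, ESRP1 and CDH11, and the ranges of CTNNB1 and CDH1 overlapped. In vector CDH11 stood above CDH3 with overlapping ranges, and ESRP1 was last. All other neighbours in these orders had ranges that did not overlap. CDH1, at a mean of 15.3 FPKM in LOC401312, reached the level of CTNNB1 (15.9 FPKM), whereas in vector CDH1 was at 10.0 and CTNNB1 at 14.1 FPKM.

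ZEB1 (ENSG00000148516; chr10:31318495-31529813, plus strand), a zinc finger and homeobox repressor, had 1697, 1569 and 1629 counts in LOC401312 and 1911, 1335 and 1619 in vector. The groups overlapped, at 2.47, 2.30 and 2.44 FPKM in LOC401312 and 2.49, 2.02 and 2.38 FPKM in vector. Its log2 change was -0.06 (SE 0.08, adjusted p = 0.741), and it was of the opposite sign, 0.07, on log2(FPKM + 0.1). The antisense gene ZEB1-AS1, which overlaps its start, was not called either (270, 204 and 199 counts in LOC401312, 320, 270 and 229 in vector). Whether the counting used strand was not stated.

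SNAI2 (ENSG00000019549; chr8:48917598-48921440, minus strand), which encodes the zinc finger repressor Slug, had 282, 260 and 248 counts in LOC401312, against 129, 71 and 144 in vector. Its FPKM was 1.08, 1.0 and 0.98 in LOC401312 and 0.44, 0.28 and 0.56 in vector. The LOC401312 libraries lay close together and above all vector libraries, which varied among themselves. The log2 change was 1.13 (SE 0.24, adjusted p = 0.0172), a 2.19-fold higher level (1.51 to 3.18). Leaving out LOC401312 replicate 1, 2 or 3 ended the call (adjusted p = 0.0651, 0.0650 and 0.0565). The FPKM ratio of ZEB1 to SNAI2 was 2.29, 2.30 and 2.49 in LOC401312, against 5.66, 7.21 and 4.25 in vector.

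ESRP1 (ENSG00000104413; chr8:94641074-94707466, plus strand) was near the limit of detection, with 22, 47 and 35 counts in LOC401312 and 18, 23 and 19 in vector. The groups overlapped in CPM, since LOC401312 replicate 1 had 0.312 CPM and vector replicate 2 had 0.385 CPM. The log2 change was 0.70 (SE 0.47, 95% confidence interval -0.35 to 1.76, adjusted p = 0.440). The higher LOC401312 libraries were replicates 2 and 3, which also held the trophoblast transcripts. Without them and without vector replicate 1, the log2 change was -0.15 (adjusted p = 0.963). Its relative ESRP2 had 31, 0 and 15 counts in LOC401312 and 0, 22 and 16 in vector. A difference in either gene was not detectable at this depth.

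With LOC401312 replicates 2 and 3 and vector replicate 1 all left out, 1 LOC401312 library was set against 2 vector libraries and was assumed to vary as they do. CDH1 (0.46, adjusted p = 0.00382) and CDH11 (-2.28, adjusted p = 0.0130) passed edgeR's test in that fit. CDH2 (0.33, adjusted p = 0.120), CDH3 (0.81, adjusted p = 0.295) and SNAI2 (1.18, adjusted p = 0.151) had changes of the same sign that did not pass.

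Genes related to these 10 were then read from lists chosen by role. Each count of calls below stands beside 4.13% of all features tested called higher and 4.58% called lower. Of 18 other cadherins, 13 were tested, 3 were higher and 0 lower, with a median log2 change of 0.25. The higher ones were all scarce type II cadherins. Among them, CDH7 (chr18:65750252-65880939) and CDH19 (chr18:66501083-66604138) lie near each other, and whether their changes are separate was not tested. CDH6, the K-cadherin of kidney and neural crest, had 213, 229 and 222 counts in LOC401312 and 67, 31 and 33 in vector (log2 change 2.30, SE 0.26, adjusted p = 0.000676). CDH7 had 404, 490 and 528 counts in LOC401312 and 181, 176 and 165 in vector (1.37, SE 0.16, adjusted p = 0.000793). CDH19, a cadherin of Schwann cell precursors, had 311, 301 and 350 counts in LOC401312 and 141, 116 and 97 in vector (1.38, SE 0.18, adjusted p = 0.00118). All 3 reached no more than 0.66 FPKM in any library, below CDH1 and CDH2 in the same libraries. In LOC401312, CDH7 (0.35, 0.43 and 0.47 FPKM) and CDH19 (0.57, 0.56 and 0.66 FPKM) were above CDH3 (0.30, 0.34 and 0.33 FPKM), and CDH6 was below it. With LOC401312 replicates 2 and 3 both left out, their adjusted p was 0.0622, 0.109 and 0.0945, and with vector replicate 1 left out as well, all 3 were called.

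Of 24 catenin relatives and junction partners, 21 were tested, 3 were higher and 2 lower, and the median log2 change was 0.04. LIMA1, an actin-bundling protein that binds α-catenin, was at 5.62, 5.88 and 5.87 FPKM in LOC401312 and 3.51, 2.91 and 2.97 FPKM in vector (log2 change 0.76, SE 0.07, adjusted p = 0.000114). VCL, the actin linker vinculin, rose by 0.27 (SE 0.04, adjusted p = 0.00409). CTNNAL1, an α-catenin relative, rose by 0.19. JUP, which encodes plakoglobin, the closest relative of β-catenin, fell by 0.17 (edgeR adjusted p = 0.0439). In FPKM the groups overlapped for JUP, at 43.61, 40.23 and 40.72 in LOC401312 and 42.52, 42.35 and 43.00 in vector. CTNNAL1 and JUP were chosen after their values were seen, and their calls in the other settings are not given here. PKP4, a p120-catenin relative on chromosome 2, fell by 0.24, but this call was lost when each chromosome's median was removed (-0.01, adjusted p = 0.922). Over chromosome 2 the median log2 change was -0.23, and no member of the 10 lies there.

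The processing and turnover list, with proteases, glycosyltransferases and endocytic factors, had 1 higher and 1 lower of 19 tested. Over all features tested, 8.72% were called. They were POFUT1 (0.14), an O-fucosyltransferase, and MGAT5 (-0.28), which branches the N-glycans of cadherins and lies on chromosome 2. The MGAT5 call was lost when the chromosome medians were removed (adjusted p = 0.652). Of 21 tested genes of the β-catenin destruction complex and nuclear partners, 2 were higher and 1 lower. GSK3B, the kinase that marks β-catenin for degradation, had a log2 change of 0.17, PPP2R1A, a phosphatase scaffold, 0.15, and AXIN2, a scaffold that is itself a common Wnt target, -0.29 (adjusted p = 0.0422, 0.0457 and 0.0489). The median log2 change was 0.03 in the processing list and -0.02 in the destruction complex list. The calls of POFUT1, GSK3B, PPP2R1A and AXIN2 were each lost without several single libraries, including LOC401312 replicate 2 for all 4.

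Among 23 other EMT transcription factors, 20 were tested, 2 were higher and 4 lower, with a median of -0.06. TWIST2, a helix-loop-helix factor, was at 2.41, 2.58 and 2.22 FPKM in LOC401312 and 4.40, 4.41 and 4.06 FPKM in vector (log2 change -0.96, SE 0.11, adjusted p = 0.000677). FOXQ1, a forkhead factor, fell by 0.88 (adjusted p = 0.00468), and ID2, an inhibitor of helix-loop-helix factors, fell by 0.79 (adjusted p = 0.00112). TWIST2 and ID2 lie on chromosome 2, where the median log2 change was -0.23. With each chromosome's median removed they were still called, at -0.73 for TWIST2 (adjusted p = 0.00367, edgeR) and -0.57 for ID2 (adjusted p = 0.00885). SNAI1, the relative of SNAI2 that encodes Snail, was at 3.45, 3.0 and 3.13 FPKM in LOC401312 and 1.76, 1.71 and 1.9 FPKM in vector, without overlap (0.71, SE 0.13, adjusted p = 0.00891). The other calls were HMGA2 (0.48) and FOXC1 (-0.53); SNAI1, HMGA2 and FOXC1 were chosen after their values were seen.

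Of 24 epithelial factors that oppose EMT, 18 were tested, 3 were higher and 2 lower, and the median was 0.08. EHF, an ETS factor of epithelia, was at 15.67, 14.79 and 14.33 FPKM in LOC401312 and 8.6, 7.78 and 8.10 FPKM in vector (log2 change 0.74, SE 0.04, adjusted p = 1.47e-05). Its relative ELF3 was lower (-0.35, SE 0.04, adjusted p = 0.00106), as was the endoderm factor FOXA2 (-0.57, adjusted p = 0.0162), whose call was lost without LOC401312 replicate 1 or 2 or vector replicate 2. GRHL2, OVOL1, OVOL2 and the host gene of the miR-200c cluster had too few counts to be tested, with at most 28 in any library.

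Of 24 mesenchymal markers, all were tested, 7 were higher and 6 lower, with a median of 0.01. The matrix protein gene TNC was at 5.76, 5.61 and 5.55 FPKM in LOC401312 and 3.08, 3.11 and 2.68 FPKM in vector (log2 change 0.81, SE 0.06, adjusted p = 4.96e-05). The collagen genes COL1A2 (-1.44, SE 0.13, adjusted p = 0.000182) and COL1A1 (-0.95, SE 0.09, adjusted p = 0.000149) were lower. Of these 24 genes, 6 also stand in the fibroblast list, COL1A1, COL1A2 and THY1 among them, and the fibroblast sum was 33.8 to 37.6 CPM in LOC401312 and 54.8 to 92.7 CPM in vector. Since COL1A1, COL1A2 and THY1 made up most of that sum in every library, it is no separate measure of fibroblast transcripts. VIM, the intermediate filament gene most used as an EMT marker, was at 194, 198 and 190 FPKM in LOC401312 and 170, 164 and 160 FPKM in vector, and its change in the counts was not called (0.11, adjusted p = 0.0609). VIM was chosen after its values were seen. With LOC401312 replicates 2 and 3 both left out, which leaves 1 LOC401312 library, the calls of VCL, TWIST2, FOXQ1, ELF3 and FOXA2 were lost. Their log2 changes in that fit were 0.27, -0.97, -1.07, -0.33 and -0.74, in that order. With all 6 libraries they were 0.27, -0.96, -0.88, -0.35 and -0.57. With vector replicate 1 left out as well, a fit chosen after seeing the data, LIMA1, VCL, TWIST2, FOXQ1, ID2, EHF, ELF3, FOXA2, TNC, COL1A1 and COL1A2 were called in the same direction.

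**Figure D5:**
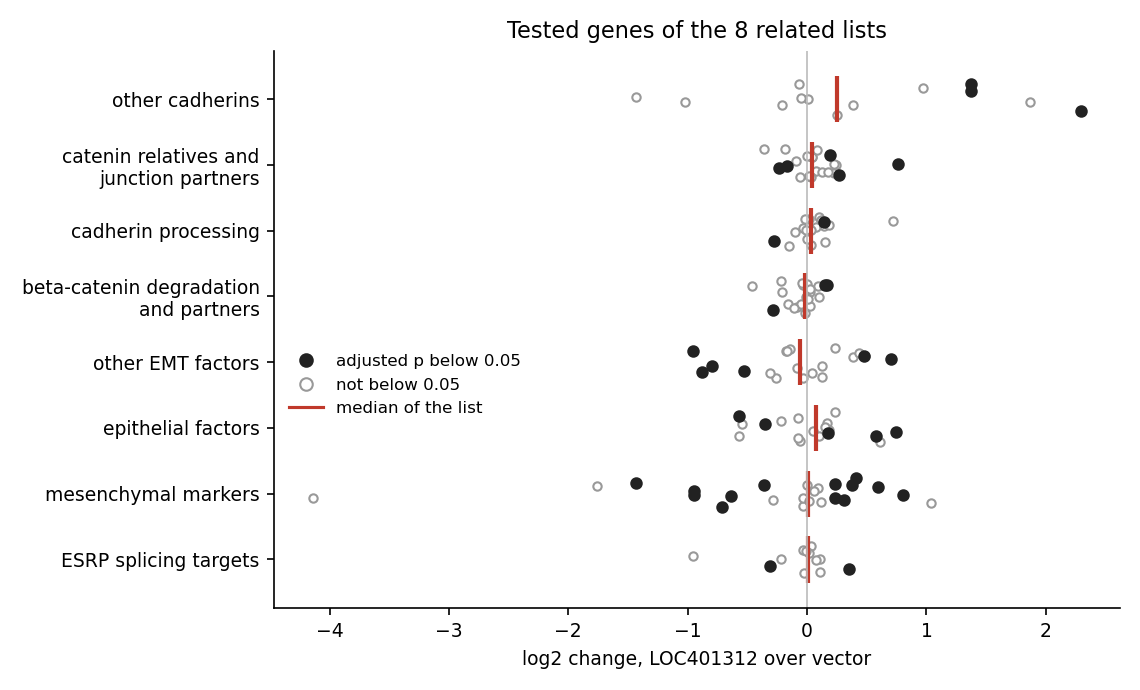
Log2 change (LOC401312 over vector, edgeR) of every tested gene in the 8 lists, with filled points for an adjusted p under 0.05, open points for the rest and a red bar at each list's median. The other cadherins have 3 filled points, all right of 0, while the EMT factor, epithelial and mesenchymal lists have filled points on both sides.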

How the data were processed

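The authors deposited 1 table of 38170 features with raw counts, whole numbers with no normalization, and FPKM for each of 6 libraries, per the file headers. How length and total entered the FPKM deposited by the authors is not stated. Per the submitters' processing notes, cutadapt 1.9 and FastQC were used and the build was GRCh38 (hg38). Not given in the sources used here were the aligner, the counter, the annotation release and the use of strand. All columns of per-sample values were mapped. Libraries were grouped by title.

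Counts were tested with edgeR 4.0.16 (R 4.3.3): TMM scaling, filterByExpr, quasi-likelihood test with group as the only term, and Benjamini-Hochberg adjustment over all 19620 features tested at a threshold of 0.05. Each standard error is the size of the log2 change over the root of F, and CPM uses TMM-adjusted totals. The biological coefficient of variation was 17%. Libraries of a group were further apart than sampling noise (chi-square over its degrees of freedom 13.96 to 23.15, features averaging 50 counts or more), so none was counted as a second copy of another. This does not show that they were separate cultures. Totals of 60971105 to 73994619 counts make sampling error small except for the scarce genes.

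The members and lists were chosen with earlier results of these data known. From each list, up to 3 tested genes past the threshold with the smallest p were named, and for CDH1 and CDH2 the 3 genes of mean at least 10 CPM with the highest correlation; the members of the cell type marker lists, the neighbouring genes and any other genes named outside this rule were chosen after their values were seen. Alternatives were RLE and total-count scaling, other filters, DESeq2 1.42.0, limma 3.58.1 with trend on log2(FPKM + 0.1) or log2(FPKM + 1) at a mean FPKM of at least 0.1, the replicate block, removal of chromosome medians, and libraries left out. CTNNA3 was not analysed here. A gene that the naming rule gives is not reported here.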

Additional observations from a re-analysis of the deposited data

How the results depend on the processing

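CDH1 kept its direction and call in all 17 other settings (log2 change 0.46 to 0.60) and CDH11 in all 14 that tested it (-2.72 to -2.28). The count tests RLE, total-count scaling, DESeq2, no filter and removed chromosome medians changed no call of the 10 genes. The cause of the other shifts was not tested. Low counts, at most 282 in any library, limit CDH3, CDH11, SNAI2 and ESRP1.

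With a mean of at least 4 CPM required, CDH3, CDH11, SNAI2 and ESRP1 were not tested, so 2 genes were called higher and 0 lower. With limma on log2(FPKM + 0.1) and log2(FPKM + 1), 0 were called lower in each, since CDH11 and ESRP1 were not tested. There CDH3 was 0.76 and 0.20, not called (adjusted p = 0.0617 and 0.0579), CTNNA1 0.22 and 0.21 and CTNNB1 0.17 and 0.16, both called, and CTNND1 (0.067 and 0.065) and ZEB1 (0.067 and 0.048) changed sign. Features called higher were 1599 and 1584, and lower 308 and 303, in the same pair of fits, against 811 and 899. Lower features were 577 with no filter and 519 with chromosome medians removed.

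Leaving out 1 library at a time gave 393 to 963 features higher, 439 to 1042 lower and 2 to 4 of the 10 genes higher. CDH3 ranged over 0.92 to 1.01 and SNAI2 over 0.92 to 1.39. Without LOC401312 replicates 2 and 3, 84 features were higher and 91 lower and 1 of the 10 genes was higher. CDH2 (0.32), CDH3 (0.85) and SNAI2 (1.19) were not called (adjusted p = 0.207, 0.354 and 0.249). In both fits with a lone LOC401312 library, that library is assumed to vary like the vector ones. The fit that also leaves out vector replicate 1 was chosen after seeing the data. It gave 352 features higher, 436 lower and 1 of the 10 genes higher, with CDH2 at 0.33, CDH3 at 0.81, SNAI2 at 1.18 and ESRP1 at -0.15.

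Same-numbered libraries showed no broad shared deviation (correlations -0.10, -0.05 and -0.02 over 11799 genes), so the main fit does not pair them. This does not show whether same-numbered libraries were grown or prepared together. With the replicate block, 509 features were higher and 579 lower, and CDH3 (0.96, adjusted p = 0.0572) was no longer called.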

Other observations

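ESRP1 and ESRP2 act on splicing, which counts per gene do not show, so their known target genes could be read only at the gene level. Of 12 such targets, 12 were tested, 1 was higher, 1 was lower and the median log2 change was 0.01. SLK, a kinase gene, was at 16.72, 17.37 and 16.58 FPKM in LOC401312 and 13.35, 11.67 and 11.48 FPKM in vector (log2 change 0.35, SE 0.05, adjusted p = 0.00144, edgeR), a call that was lost with LOC401312 replicates 2 and 3 both left out (adjusted p = 0.132). CD44, a hyaluronan receptor whose exon use depends on ESRP1, was at 57.3, 58.1 and 57.7 FPKM in LOC401312 and 53.4, 51.4 and 50.7 FPKM in vector and was not called on the counts (0.03, adjusted p = 0.679). CD44 was chosen after its values were seen.

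The genes whose levels ran most like those of CDH1 over the 6 libraries were EFEMP1 (Pearson r = 0.9985), COL5A1 (0.9985) and BMP1 (0.9978), which encode secreted or matrix proteins. For CDH2 they were ANO6 (0.9979), a lipid scramblase gene, CC2D1B (0.9953) and CRYBG1 (0.9952). These are the highest of 9884 features with a mean of at least 10 CPM, on log2(CPM + 0.5), and the points share the difference between the groups. EFEMP1 was at 47.0, 47.9 and 50.3 CPM in LOC401312 and 24.7, 25.9 and 26.2 CPM in vector, so its level and that of CDH1 separate the groups in the same way.

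The E-box CAGGTG, a motif that ZEB1, SNAI1 and SNAI2 bind, was searched on both strands in RefSeq promoter windows (GRCh38.p14, 250 bases before to 50 after each start). Windows were at hand for 4 of the 10 genes. It was found in 2 of 7 windows of ZEB1, in 0 of 2 of CDH2, in 0 of 4 of CTNNA1 and in 0 of 1 of CTNNB1, against 20.6% of all 35116 windows.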
